A study of Mus musculus with 21 samples.

Results

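The 48 genes described here encode proteins that act in G2 and mitosis, the stretch of the cell cycle between the end of DNA replication and the separation of daughter cells. They were followed in single cells of embryonic mouse back skin. They were taken as a list of named genes, chosen with earlier results of these data known. All 48 were found among the 20284 gene rows of the table. In condensate cells these genes were lower than in the fibroblasts of the same library in 5 of 6 libraries. In DC0 cells, DC1 cells and fibroblasts most of their RNA lay in a minority of wells with many of their transcripts.

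The samples were cells of dorsal skin of CD1 mouse embryos at embryonic day 15, when dermal fibroblasts gather into dermal condensates, the cell clusters that instruct the epidermis to build a hair follicle. Live cells were sorted into the wells of plates, and their RNA was counted by SORT-seq, which runs the CEL-Seq2 chemistry in plates and tags each captured RNA molecule at random (unique molecular identifier, UMI). The populations were named in the table as DC0 (149 wells), DC1 (152 wells), DC2 (151 wells) and Fb, the fibroblasts (1371 wells). DC0, DC1 and DC2 are taken in the order of their numbers and are called condensate cells when they are put together. No group carried a treatment, and no genotype beyond the strain was given. The labels do not define DC0, do not say whether the names came from the sort or from clusters of the cells' RNA, and do not say whether libraries came from separate embryos. P-values therefore measure the spread between libraries. If the names came from clusters, genes of the cell cycle may have helped to set them.

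The wells came from 9 libraries, each a plate. Libraries 1 to 7 held mainly Fb wells with 9 to 15 condensate wells each, library 8 held most of the DC0 and DC2 wells, and library 9 held most of the DC1 wells and no other cells. Libraries 8 and 9 therefore have no Fb wells of their own plate. The libraries summed to between 1447590 and 6424841 UMIs, and the median well had 12773 UMIs in DC0, 10469 in DC1, 8333 in DC2 and 18509 in Fb. All 8 condensate markers (Sox2, Sox18, Foxd1 and others) were higher in condensate cells and all 8 fibroblast markers were lower, which goes with the names. If the names came from clusters of the cells' RNA, this outcome was set in advance and cannot check them. Between stages, 1 of the 8 condensate markers was higher in DC1 than in DC0, and 0 of 8 differed between DC2 and DC1. Further wells were named for spike-in RNA, and these show what a well without a named cell holds.

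As background, the cyclin-dependent kinase Cdk1 drives entry into mitosis once it is bound by cyclin A or cyclin B. The anaphase-promoting complex then marks cyclins and other proteins for destruction, which lets chromosomes part and the cell divide. The genes of this programme are switched on together late in the cycle through the transcription complexes MuvB, B-Myb and FoxM1, and they are silent in resting cells. Dermal condensate cells are known as a population that leaves the cell cycle, marked by the inhibitor p21, the product of Cdkn1a. In bulk sums fewer dividing cells and less RNA in each dividing cell cannot be told apart, so sums are followed here by the counts in single wells.

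Promoters of these genes carry short elements read by that machinery. The CHR element (TTTGAA or TTCGAA) is bound by the MuvB core, and the CCAAT box is bound by NF-Y. RefSeq promoters (GRCm38.p6, the assembly behind the mm10 build of the data, from 250 bases before to 50 after the start) were matched for 41 of the 48 genes. The promoters of the 4 members with the most UMIs that hold a CHR match, and of the 2 that hold none, are shown because they show what members with a shared time of expression do and do not share. The sequences run 5′ to 3′ along the gene, and capitals mark CHR and CCAAT matches on either strand. Top2a lies at chr11:99024140-99024439 on the minus strand, Tmpo at chr10:91170501-91170800 on the minus strand, Mki67 at chr7:135716330-135716629 on the minus strand and Hmgb2 at chr8:57511593-57511892 on the plus strand. Cks2 lies at chr13:51644982-51645281 and Birc5 at chr11:117848987-117849286, both on the plus strand.
Top2a: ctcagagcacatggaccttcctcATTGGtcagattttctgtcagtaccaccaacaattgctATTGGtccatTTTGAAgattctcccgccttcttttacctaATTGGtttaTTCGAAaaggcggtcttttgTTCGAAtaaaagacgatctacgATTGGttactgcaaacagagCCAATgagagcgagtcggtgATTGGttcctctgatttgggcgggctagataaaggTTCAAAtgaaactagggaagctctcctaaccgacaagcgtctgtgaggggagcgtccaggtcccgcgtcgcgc
Tmpo: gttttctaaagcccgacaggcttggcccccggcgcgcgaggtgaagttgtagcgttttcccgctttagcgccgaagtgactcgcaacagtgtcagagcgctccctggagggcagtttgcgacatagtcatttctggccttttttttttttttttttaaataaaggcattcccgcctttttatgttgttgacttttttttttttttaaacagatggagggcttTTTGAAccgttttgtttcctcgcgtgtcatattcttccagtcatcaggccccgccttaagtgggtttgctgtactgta
Mki67: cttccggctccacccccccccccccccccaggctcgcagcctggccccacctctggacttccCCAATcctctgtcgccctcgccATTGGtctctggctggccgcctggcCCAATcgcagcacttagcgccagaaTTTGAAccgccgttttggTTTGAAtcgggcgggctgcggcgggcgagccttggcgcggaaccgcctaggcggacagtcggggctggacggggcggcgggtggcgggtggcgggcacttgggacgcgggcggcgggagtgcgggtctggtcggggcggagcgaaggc
Hmgb2: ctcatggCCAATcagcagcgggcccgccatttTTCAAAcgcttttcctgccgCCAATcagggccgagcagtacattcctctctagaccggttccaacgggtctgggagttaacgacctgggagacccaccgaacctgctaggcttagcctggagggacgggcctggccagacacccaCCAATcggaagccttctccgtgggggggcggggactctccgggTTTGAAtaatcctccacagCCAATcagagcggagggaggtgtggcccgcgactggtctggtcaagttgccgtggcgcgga
Cks2: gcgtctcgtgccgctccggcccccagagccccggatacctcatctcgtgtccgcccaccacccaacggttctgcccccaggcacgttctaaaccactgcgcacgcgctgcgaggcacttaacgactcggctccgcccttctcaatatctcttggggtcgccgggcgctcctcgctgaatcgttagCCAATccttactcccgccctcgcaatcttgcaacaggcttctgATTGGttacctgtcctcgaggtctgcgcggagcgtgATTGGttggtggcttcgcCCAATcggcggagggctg
Birc5: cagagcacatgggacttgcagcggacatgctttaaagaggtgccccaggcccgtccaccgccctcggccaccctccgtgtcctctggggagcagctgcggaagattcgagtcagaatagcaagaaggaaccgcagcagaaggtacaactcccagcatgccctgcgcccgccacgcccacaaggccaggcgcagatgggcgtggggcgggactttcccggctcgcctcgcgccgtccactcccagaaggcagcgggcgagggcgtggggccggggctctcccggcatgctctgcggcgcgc

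The Top2a promoter held 4 CHR matches and 6 CCAAT matches, and its last CHR match began 23 bases before the start. Tmpo has 2 promoters in the table, and the one shown held a CHR match that began 28 bases before the start, with no CCAAT match. Hmgb2 had a CHR match 30 bases before the start, while both matches of Mki67 lay farther out, beginning at positions -116 and -98 from it. Cks2 had no CHR match but 4 CCAAT matches, and Birc5 had neither in this window.

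Of the 45 promoters listed for the 41 matched members, 34 (75.6%) held a CHR match, against 19.2% of all 32851 promoters of the same length. A CCAAT match was found in 36 (80.0%), against 37.4% of all promoters, and both motifs in 29 (64.4%), against 7.52%. A CHR match that began within 50 bases of the start on either side, a window chosen after the matches were seen, was found in 30 of the 45 (66.7%), against 5.31% of all promoters. The 32 members with a CHR match had a median log2 fold change of -0.89 between condensate cells and Fb, and the 9 members without one a median of -0.92. A match is a run of letters and not a measured site.

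The first comparison asked whether condensate cells carry less RNA of these genes than fibroblasts. Member UMIs made up 0.515%, 0.123%, 0.295%, 0.103%, 0.947% and 0.212% of gene UMIs in condensate sums of libraries 1 to 6. The Fb sums held 0.770%, 0.659%, 0.637%, 0.663%, 0.583% and 0.655% in the same order of libraries. The share was thus lower in condensate cells in 5 of 6 libraries and higher in library 5, and it ranged far more widely in condensate cells than in Fb. It averaged 0.366% ± 0.322 in condensate cells and 0.661% ± 0.0610 in Fb (SD, n = 6 libraries each). The log2 ratio of condensate to Fb averaged -1.29 (SD 1.25, n = 6), and -1.68 without library 5. As a score over the members it was not tested.

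**Figure D1:**
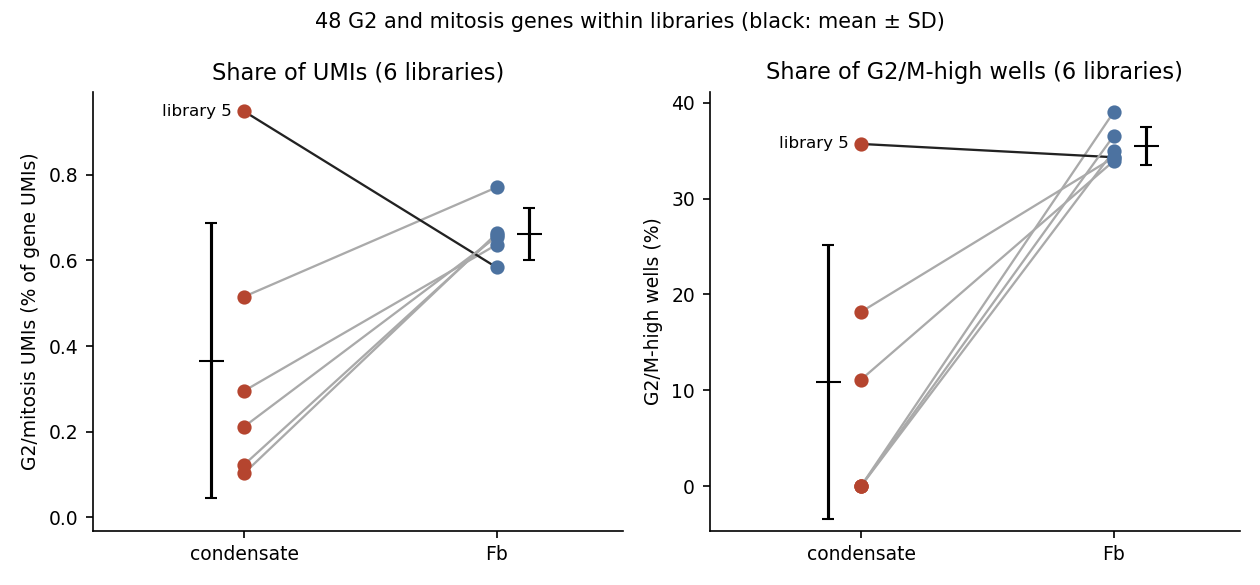
Left, UMIs of the 48 genes as a percentage of gene UMIs in condensate and Fb sums of libraries 1 to 6; right, the percentage of G2/M-high wells in condensate and Fb wells of libraries 2 to 7. Each point is a library, lines join the groups of a library, and black marks give the mean and SD; condensate points lie below Fb points except in library 5, where they reach 0.947% and 35.7%.

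Gene by gene, 31 of the 48 members were lower in condensate cells than in Fb at an adjusted p under 0.05, and none was higher. This was edgeR's quasi-likelihood test on UMI sums in which the library was a block, adjusted by Benjamini-Hochberg over 9640 genes, of which 13.2% were called lower. At an unadjusted p under 0.05 there were 39 of the 48 members, all of them below 0, and 3276 of the 9640 genes in either direction. The fold change was below 0 in all 48, with a median of -0.92 on the log2 scale, against -0.03 over all genes tested. All 48 passed the filter on low counts, 16 of them with every condensate sum at the filter's level of 7.26 UMIs per 1e6 of a sum's UMIs (CPM) and 1 with fewer than 3 of those 6 sums at it. Libraries 3, 5 and 6, which share a sequencing run, alone called 6 members lower (9.71% of genes), the other libraries alone 41 (6.96% of genes). The fit without the block called 11 (13.3% of genes). Leaving out library 5 gave 45 (12.4% of genes), while leaving out library 2, 4 or 6 gave 18, 20 or 19.

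Of the 13 kinases, cyclins and their partners, 7 fell. Cdk1 (chromosome 10, 69335146 to 69352912) is the kinase that carries the cell into mitosis. Its level was 233, 52.8, 75.2, 22.3, 302 and 88.7 CPM in condensate sums of libraries 1 to 6. It was 266, 252, 265, 285, 228 and 248 CPM in Fb sums. Condensate sums were lower in every library except library 5, and the groups overlapped through libraries 1 and 5. The log2 fold change was -1.10 (SE 0.247, adjusted p = 0.000721).

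Ccna2 (chromosome 3, 36564865 to 36573038), cyclin A2, which partners Cdk2 in S phase and Cdk1 later, had the largest fall of this role. It stood at 132.97, 35.2, 82.8, 14.8, 241.7 and 46.7 CPM in condensate sums, against 272, 262, 223, 198.3, 208 and 236 CPM in Fb sums, a log2 fold change of -1.33 (SE 0.247, adjusted p = 5.23e-05). Cks2 (chromosome 13, 51645232 to 51650662), a small subunit of cyclin-dependent kinases, had 0 UMIs in the condensate sum of library 2, which allows up to 52.8 CPM (3 UMIs). Its levels were 177, 0, 71.5, 104, 252 and 32.7 CPM in condensate sums, against 236, 234, 194, 302, 188.8 and 213 CPM in Fb sums (log2 fold change -1.11, SE 0.255, adjusted p = 0.000887). Both genes were lower in 5 of 6 libraries and higher in library 5. Cyclins B (Ccnb1 -1.08 and Ccnb2 -0.94 on the log2 scale), the Polo kinase Plk1 (-1.13) and the passenger kinase Aurkb (-1.17) also passed the test. The checkpoint kinases Ttk (-0.85) and Bub1 (-0.78), the centrosome kinases Aurka (-0.73) and Nek2 (-0.68), the phosphatase Cdc25c that activates Cdk1 (-0.69) and Cks1b (-0.55) did not.

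Among the 3 genes of protein destruction, 2 fell. Ube2c (chromosome 2, 164769929 to 164772902) encodes the ubiquitin-conjugating enzyme that works with the anaphase-promoting complex. It was at 332, 70.4, 82.8, 22.3, 578 and 32.7 CPM in condensate sums, against 274.01, 269, 267, 242.9, 216.6 and 274.6 CPM in Fb sums. Libraries 1 and 5 were higher in condensate cells and the other 4 lower. The log2 fold change of -0.83 (SE 0.317) missed the threshold with an adjusted p of 0.0529. It passed without library 1 (-1.04) and without library 5 (-1.68). The activator Cdc20 (-1.12) and Cdca3 (-1.18), a trigger of mitotic entry that is itself a target of destruction, passed.

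Of the 8 genes of the centromere, kinetochore and passenger complex, 6 fell. Birc5 (chromosome 11, 117849237 to 117855743) encodes survivin, a subunit of the chromosomal passenger complex. It had 55.4, 70.4, 112.9, 22.3, 181.2 and 84.0 CPM in condensate sums, against 202, 179, 173, 229, 177 and 199.3 CPM in Fb sums. Library 5 was the only library in which it was not lower, and the log2 fold change was -1.06 (SE 0.224, adjusted p = 0.000316). Cenpf (-1.24), Cenpe (-0.97), Cenpa (-0.94) and the outer kinetochore subunits Ndc80 (-0.99) and Nuf2 (-0.92) passed too, and Cdca8, borealin of the passenger complex, was at -0.71 without passing. Hjurp (chromosome 1, 88258856 to 88277644), the chaperone that loads Cenpa, had the highest fold change of the 48, at -0.10 (SE 0.277, adjusted p = 0.847). Its levels were 55.4, 0, 45.1, 37.1, 70.9 and 41.997 CPM in condensate sums, against 44.1, 41.7, 45.3, 50.9, 55.7 and 41.7 CPM in Fb sums. It was lower in libraries 3 and 4, while the 0 UMIs of library 2 allow up to 52.8 CPM, above the Fb level there, so no difference was detectable in that library.

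The spindle group fell in 8 of 13 genes. Ckap2l, a spindle protein of neural progenitors, had the largest fall (-1.36, SE 0.291), followed by Hmmr (-1.10), the motor of cytokinesis Kif23 (-0.99), the spindle assembly factor Tpx2 (-0.96), Ckap2 (-0.96), the motor Kif11 (-0.92), Tacc3 (-0.90) and the microtubule bundler Nusap1 (-0.81). Gtse1 (-0.92), Dlgap5 (-0.78), Prc1 (-0.64), Kif2c (-0.56) and Kif20b (-0.41) lay below 0 without passing. Of the 3 cytokinesis genes, the ring scaffold Anln passed (-0.88, SE 0.295), whereas Racgap1 and Ect2, which together set the place of the furrow, were both at -0.41.

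Chromosome and nuclear envelope genes held the most UMIs of all members, and 7 of the 8 fell. Top2a (chromosome 11, 98992947 to 99024199) encodes the topoisomerase that untangles sister chromosomes. It was the exception, with a log2 fold change of -0.58 (SE 0.252, adjusted p = 0.0912). Its levels were 521, 52.8, 248, 51.9, 985 and 224 CPM in condensate sums, against 508, 396, 425, 381.9, 389 and 447 CPM in Fb sums. The condensate value of library 5 was the highest of the 12, and without that library the log2 fold change was -1.13 and passed.

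Mki67 (chromosome 7, 135689784 to 135716450), the coat of mitotic chromosomes known as Ki-67, had 177, 0, 229, 14.8, 533 and 125.99 CPM in condensate sums, against 503, 429, 432, 284, 386 and 410.3 CPM in Fb sums (log2 fold change -1.26, SE 0.260, adjusted p = 0.000243). Smc4 (chromosome 3, 69004738 to 69034623), a core subunit of condensin, had 221.6, 70.4, 233, 44.5, 470.2 and 195.99 CPM in condensate sums, against 461, 377.6, 392, 254, 370.4 and 404 CPM in Fb sums (-0.93, SE 0.198, adjusted p = 0.000371). Both were lower in 5 of 6 libraries. Tmpo (chromosome 10, 91147571 to 91181752), the lamina protein LAP2, had 421, 123.2, 237, 223, 581 and 233 CPM in condensate sums, against 443, 473, 392, 476, 429 and 408 CPM in Fb sums (-0.61, SE 0.172, adjusted p = 0.00709). Hmgb2 (chromosome 8, 57511843 to 57515999), an abundant chromatin protein of dividing cells, had 531.9, 211, 154, 141, 275.8 and 125.99 CPM in condensate sums, against 407, 461, 244, 712, 178 and 311 CPM in Fb sums. It varied between libraries within both groups, and its fold change of -0.68 (SE 0.215, adjusted p = 0.0180) did not pass without library 2, 4 or 6 (-0.60, -0.38 and -0.58).

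Lbr (chromosome 1, 181815315 to 181842401), the lamin B receptor of the inner nuclear membrane, had the largest fall of the 48, -1.46 (SE 0.266, adjusted p = 4.02e-05). It stood at 33.2, 17.6, 22.6, 22.3, 31.5 and 37.3 CPM in condensate sums, against 103, 86.0, 66.2, 89.2, 68.9 and 65.8 CPM in Fb sums. The groups did not overlap, and library 5 was lower like the others. These condensate levels rest on 3, 1, 6, 3, 12 and 8 UMIs. In library 7, which was not in this fit, Lbr stood at 63.6 CPM in condensate cells and 65.8 CPM in Fb. In library 5, 46 of the 48 members were higher in condensate cells, and Lbr and Cks1b were the 2 exceptions. In library 2, 23 members were detected and lower, and 25 had 0 UMIs in the condensate sum; for 18 of these the Fb level was above the 52.8 CPM that 0 UMIs allow, and for 7 no difference was detectable. In library 4, 33 members were detected and lower, and 15 had 0 UMIs, all with a Fb level above the 22.3 CPM that 0 UMIs allow. In libraries 3 and 6, 47 were lower, and in library 1 39 were. The share of all genes that was lower was not counted library by library, so these counts have no background beside them. The condensate sums are shallow, with 56832 UMIs in library 2 against 2372569 in Fb.

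**Figure D2:**
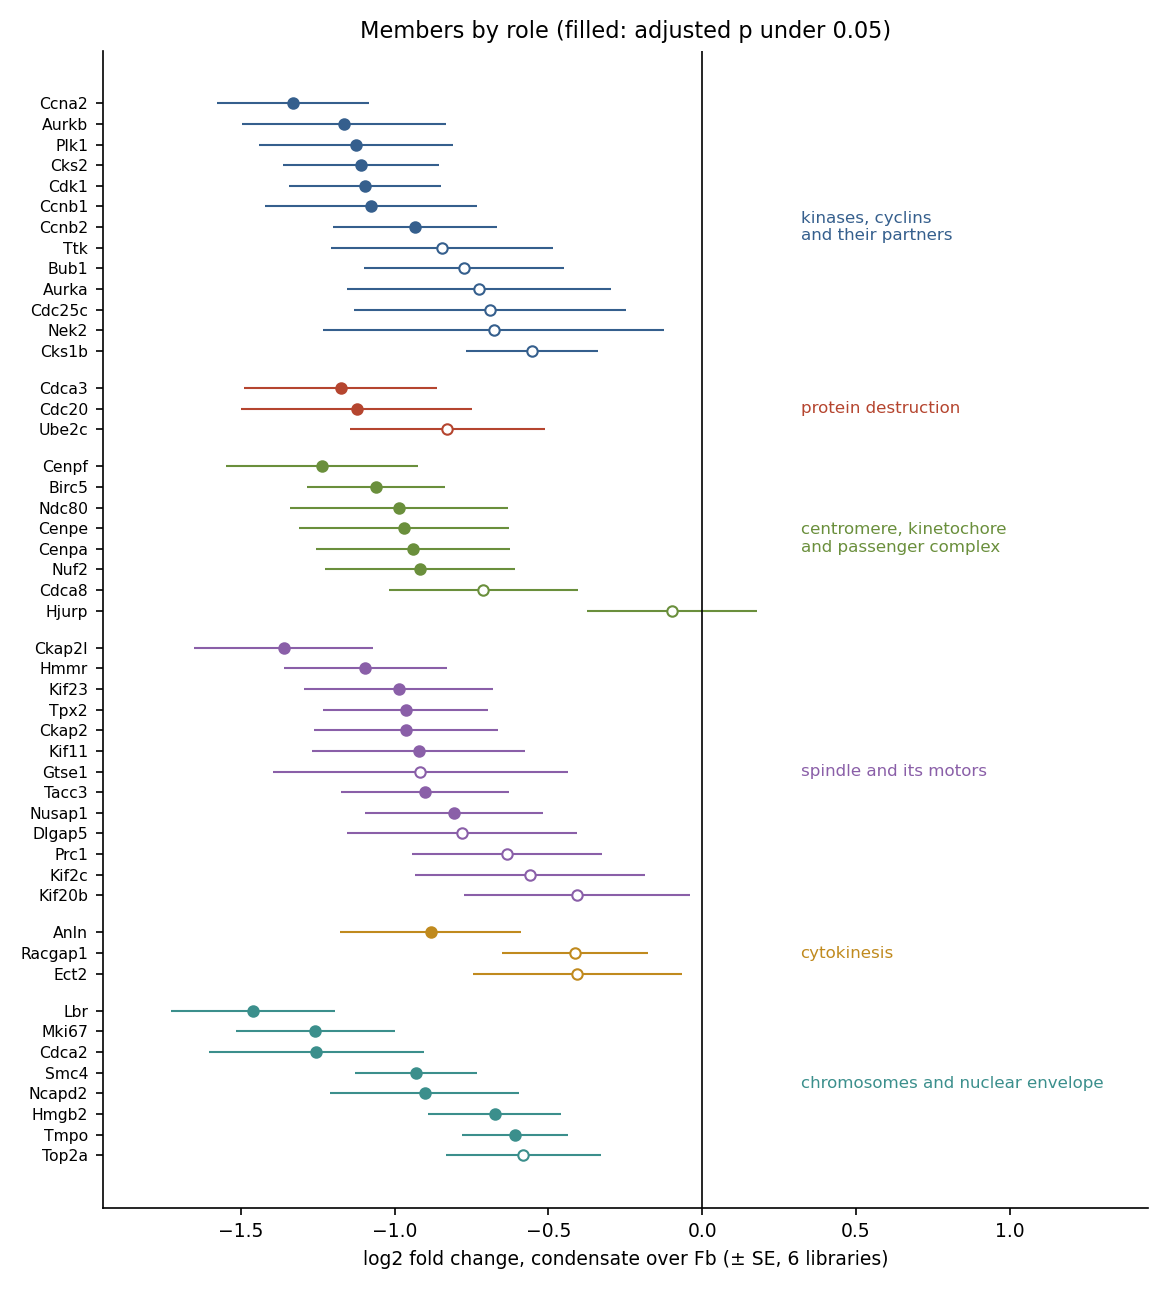
Log2 fold change of condensate cells over Fb for each of the 48 genes, with its standard error, from UMI sums of 6 libraries, grouped by role. Filled points passed an adjusted p under 0.05; all 48 lie below 0, from Lbr at -1.46 to Hjurp at -0.10.

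The second comparison took the stages apart, with sums of at least 2 wells from libraries 1 to 8 in a single fit of 5740 genes, in which 43 members passed a mean of 30 CPM. Cdc25c, Gtse1, Kif2c, Nek2 and Ttk did not. DC0 was lower than Fb in 10 members (8.78% of genes were called lower), DC1 in 7 (9.88%) and DC2 in 42 (17.9%), and none was higher at any stage. The median log2 fold change of the members was -0.89 for DC0, -0.82 for DC1 and -2.04 for DC2, against -0.09, -0.06 and -0.13 over all genes. The counts for DC0 and DC1 rest on few genes beside the share called over all genes, and the count for DC2 covers nearly the whole list. The 3 comparisons share their Fb sums.

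In DC2 the sole member that did not pass was Hjurp (-1.03, SE 0.480, adjusted p = 0.104). Ccna2 had the largest fall in DC2, at -2.97 (SE 0.403, adjusted p = 8.91e-09), followed by Aurka (-2.87) and Bub1 (-2.61). It was at -1.23 in DC0 (SE 0.337, adjusted p = 0.00612) and -1.42 in DC1 (SE 0.341, adjusted p = 0.00109), 1 of 2 members that passed at all 3 stages. The other was Cks2, at -1.37 in DC0, -0.98 in DC1 and -1.93 in DC2. Ube2c was at -1.88 in DC0 (adjusted p = 0.000634), -0.75 in DC1 and -2.41 in DC2. The counts for the earlier stages moved with single libraries: DC0 had 22 members lower without library 5 and 25 without library 7, and 4, 6, 5, 6 and 5 without library 1, 2, 3, 4 and 6. DC1 had 4, 12, 3, 21 and 3 without library 2, 3, 4, 5 and 6. With at least 5 wells per sum the counts were 0 for DC0, 13 for DC1 and 17 for DC2.

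Between neighbouring stages, no member differed between DC1 and DC0 (0 lower and 0 higher of 43, 2 at an unadjusted p under 0.05, 0 by DESeq2), where 0.0871% of genes were called lower and 0.47% higher. Over all 5740 genes, 397 had an unadjusted p under 0.05. The median log2 fold change of DC1 over DC0 was 0.08 and was not stable in sign. With at least 5 wells per sum it was -1.34, and 45 of 45 members were below 0. Of these 11 had an unadjusted p under 0.05, as had 293 of 5839 genes. The median was -1.12 without wells that held 5 or more UMIs of other cell types, and 1.14 in libraries outside the shared run. No member was called lower in any of these settings. Between DC2 and DC1 all 43 fold changes were below 0, with a median of -1.21 against -0.08 over all genes. With at least 5 wells per sum that direction was lost: 16 of 45 members were below 0, with a median of 0.098. In the fit of 5740 genes only Hmgb2 passed (-1.75, SE 0.412, adjusted p = 0.0126), where 0.714% of genes were called lower. At an unadjusted p under 0.05 there were 26 members, and 688 of the 5740 genes. Hmgb2 stood at 0, 187, 25.6, 62.8, 207, 0, 65.7 and 138 CPM in DC2 sums of libraries 1 to 8, and at 674, 198.8, 387, 213.9, 265, 141 and 30.7 CPM in DC1 sums of libraries 1 to 7. The 0 UMIs in DC2 of libraries 1 and 6 allow up to 1051 and 279.4 CPM (3 UMIs), above the DC1 levels there, so no difference was detectable at this depth in those libraries. In CPM, DC2 was lower in libraries 2 to 5 and higher in library 7. The UMIs of DC2 against DC1 were 3 against 4, 3 against 30, 3 against 11 and 22 against 22 in libraries 2 to 5. They were 6 against 1 in library 7. Libraries 2 and 5 thus had nearly the same or the same number of UMIs in both stages. The call was lost without library 1 (-1.47) or library 3 (-1.33).

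**Figure D3:**
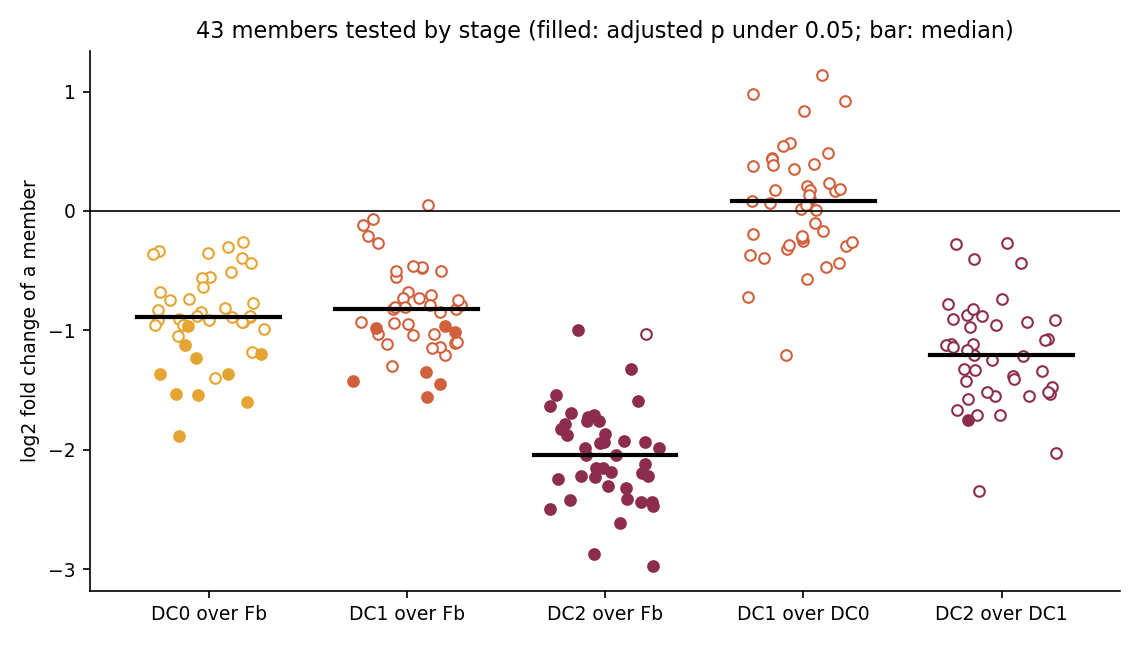
Log2 fold changes of the 43 members tested in each stage comparison, a point for each member and a black bar for the median. Filled points passed an adjusted p under 0.05 (10 for DC0 over Fb, 7 for DC1 over Fb, 42 for DC2 over Fb, 0 for DC1 over DC0 and 1 for DC2 over DC1).

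Library 8 held DC0 and DC2 wells of the same plate. There all 48 members were lower in the DC2 sum than in the DC0 sum. Of the 38 members with a mean of at least 30 CPM over both sums, 86.8% were at less than 0.5 of the DC0 level, against 4.79% of the 5798 genes at that level of expression. The median ratio of DC2 to DC0 was 0.337 for the 48 members and 1.07 for those genes. Cdk1 was at 62.5 CPM in DC2 and 238.6 CPM in DC0, Mki67 at 65.5 CPM in DC2 and 191 CPM in DC0, and Hmgb2 at 138 CPM in DC2 and 478 CPM in DC0. With a single sum of each population in this library the difference has no replicate check. The DC1 sum of library 9, a different plate, had 101.6 CPM of Cdk1, 176 CPM of Mki67 and 179 CPM of Hmgb2.

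Single wells show what lies behind these sums. Each well was thinned at random to 3000 UMIs, which left out 34 DC0, 13 DC1, 64 DC2 and 216 Fb wells that held fewer. A well was called G2/M-high when at least 15 of its 3000 UMIs (0.5%) came from the 48 genes. This is a cut through a score and not a cell type; 6 DC0, 16 DC1, 0 DC2 and 128 Fb wells lay within 5 UMIs of it. By this measure 29 DC0 wells (25.2%), 19 DC1 wells (13.7%), 2 DC2 wells (2.30%) and 426 Fb wells (36.9%) were G2/M-high. The exact 95% binomial intervals were 17.6 to 34.2% for DC0, 8.43 to 20.5% for DC1, 0.280 to 8.06% for DC2 and 34.1 to 39.7% for Fb. They cover counting error only.

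Per library, the G2/M-high share of condensate wells was 0%, 18.2%, 0%, 35.7%, 0% and 11.1% in libraries 2 to 7. Fb wells of the same libraries gave 34.9%, 34.3%, 39.01%, 34.3%, 36.5% and 33.9%. Over these 6 libraries the Fb share varied little, and the condensate share lay below it in every library but library 5. Library 1 was left out because it had only 4 deep condensate wells, of which 1 was G2/M-high. Its Fb share was higher than in these libraries, at 53 of 108 wells (49.1%, exact interval 39.3 to 58.9%). Condensate wells averaged 10.8% ± 14.3 and Fb wells 35.5% ± 1.95 (SD, n = 6 libraries with at least 5 deep condensate wells), a difference of -24.7 percentage points (SD 15.5). Each condensate share rests on 7 to 14 wells. The exact 95% interval reaches up to 40.96% in library 2 (0 of 7 wells), 51.8% in library 3, 26.5% in library 4 (0 of 12 wells), 28.5% in library 6 (0 of 11 wells) and 48.2% in library 7. The upper end lay below the Fb share of the same library in libraries 4 and 6. In the others it did not, so no difference was detectable there at this number of wells. These intervals cover counting error of wells of a plate and leave out the error of the Fb share. The shares were not tested.

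In the plates of condensate cells, library 8 had 24 of 94 DC0 wells G2/M-high (25.5%, 17.1 to 35.6%) and 1 of 65 DC2 wells (1.54%, 0.0389 to 8.28%). Library 9 had 16 of 114 DC1 wells (14.04%, 8.24 to 21.8%). Libraries 1 to 7, whose wells were thinned in the same way, had 5 of 21 DC0 wells (23.8%), 3 of 25 DC1 wells (12%) and 1 of 22 DC2 wells (4.55%). The order DC0, DC1, DC2 from high to low was thus the same in both sets of plates, but the intervals of neighbouring stages overlap in both sets. In libraries 1 to 7 they overlap widely (8.22 to 47.2% for DC0, 2.55 to 31.2% for DC1, 0.115 to 22.8% for DC2). There the G2/M-high DC2 well and most of the G2/M-high DC0 wells came from library 5. DC1 of library 9 lay on another plate than DC0 and DC2 of library 8, so stage and plate cannot be told apart for it. In wells of at least 3000 UMIs left unthinned, with the same 0.5% cut, the shares were 25.5% for DC0 and 1.54% for DC2 in library 8, 10.5% for DC1 in library 9 and 37.7% for Fb. With a stricter cut of 30 UMIs, 18.1% of DC0 wells and 1.54% of DC2 wells in library 8, 5.26% of DC1 wells in library 9 and 23.2% of Fb wells remained above it.

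**Figure D4:**
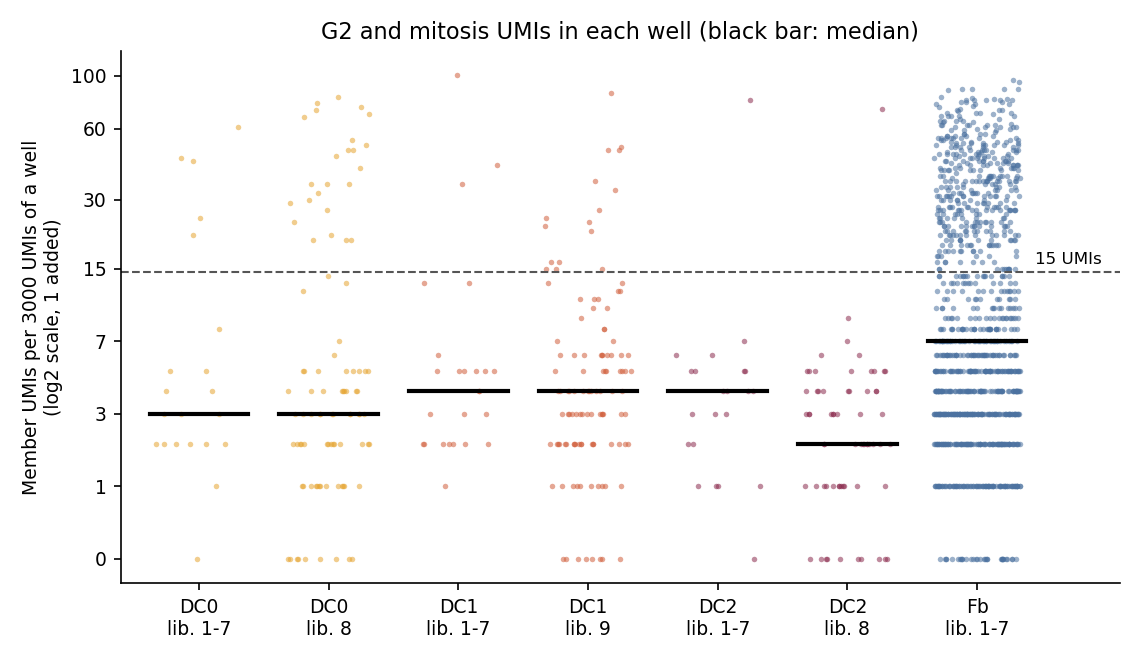
UMIs of the 48 genes among 3000 UMIs of each well, on a log2 axis with 1 added, by population and set of libraries; each point is a well and black bars are medians. The dashed line marks 15 UMIs: DC2 wells lie below it except for 2, whereas Fb wells reach from 0 to 96.

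By this cut, a minority of wells carried most of the signal in DC0, DC1 and Fb. The 25.2% of DC0 wells that were G2/M-high held 83.2% of the member UMIs of DC0, much as the 36.9% of Fb wells held 83.3% of those of Fb. In DC1 the G2/M-high wells held 58.2%, and in DC2 the 2 wells held 38.9%. The other wells held a mean of 2.94 member UMIs of 3000 in DC0, 4.05 in DC1, 2.81 in DC2 and 4.57 in Fb. G2/M-high wells had a median of 41 in DC0, 27 in DC1, 76 in DC2 (the 2 wells had 73 and 79) and 36 in Fb. So the low wells held a minority of the member UMIs in each of DC0, DC1 and Fb, and most of them in DC2. Without the cut, the 10% of wells with the most member UMIs held 49.8% of member UMIs in DC0 and 51.6% in DC1. They held 50.9% in DC2 and 36.6% in Fb. By that measure DC2 was as concentrated as DC0, so the contrast with DC2 depends on the cut.

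The cut sets part of that split, so wells were also classed on the 24 members at odd places of the list (at least 8 UMIs of 3000) and read on the other 24. The second set of members averaged 20.3 UMIs in high DC0 wells, 15.5 in DC1, 28.7 in DC2 (3 wells) and 18.7 in Fb. In the remaining wells it averaged 1.06 in DC0, 1.66 in DC1, 1.12 in DC2 and 2.16 in Fb. The averages of the classes therefore differed in members that did not set them, in all 4 populations. Both sets come from the same list of genes switched on together, so a difference was likely beforehand. In DC2 it rests on 3 wells.

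In library 5, where condensate cells were higher, few wells held most of the member UMIs, which was no trait of that library alone. Of its 14 condensate wells 5 were G2/M-high, 3 of them DC0, 1 DC1 and 1 DC2. The DC1 well held 101 member UMIs of 3000, the highest of all wells, and the DC2 well 79. The top 2 wells of that library held 52.2% of the member UMIs of its thinned condensate wells. Over libraries 1 to 7, library 5 included, the top 7 of 68 condensate wells held 61.0%. The Fb wells of library 5 were like those of the other libraries from 2 to 7, with 69 of 201 G2/M-high.

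Within the G2/M-high wells, member levels in condensate wells lay on both sides of those in Fb wells. Over the 48 genes the ratio of condensate to Fb level in high wells had a median of 1.02, with 23 genes below 1 and 25 above. Lbr had the lowest, 80.0 CPM in condensate against 127 CPM in Fb, a ratio of 0.631. Aurka had the highest, 1.87. In the other wells the median ratio was 0.738, with 39 genes below 1. Cdc25c, with 0 UMIs in the other condensate wells, was the lowest. These are pooled wells, thinned to one depth, and the ratios were not tested. The classes were set on the summed UMIs of these same 48 genes, so the cut fixes part of the levels within each class. The ratios therefore cannot show whether a dividing condensate cell holds as much of this RNA as a dividing fibroblast.

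The makeup of the signal by role differed between the classes, for some roles in opposite directions in condensate and Fb wells; this was not tested. In G2/M-high wells 32.2% of member UMIs of condensate and 31.8% of those of Fb came from chromosome and nuclear envelope genes. In the other wells this role gave 44.4% in condensate and 45.02% in Fb. Protein destruction genes gave 7.39% in high condensate wells and 6.71% in high Fb wells, against 4.70% and 3.78% in the other wells of condensate and Fb. Cytokinesis genes gave 3.74% in high and 6.24% in other condensate wells, but 5.37% in high and 3.93% in other Fb wells. Kinases, cyclins and partners gave 23.8% in high and 20.7% in other condensate wells, and 22.5% in high and 23.2% in other Fb wells. For this role the condensate stages differed in direction. High and other wells gave 26.6% and 22.1% in DC0, 20.8% and 18.9% in DC1, and 14.5% (22 UMIs) and 22.6% in DC2. The pooled condensate values mix the stages. Tmpo, which cells also use outside mitosis, kept 191 CPM in other condensate wells and 258 CPM in other Fb wells, the highest of the members. Mki67 had 36.7 CPM in other condensate wells against 61.7 CPM in other Fb wells, and 733 CPM in high condensate wells against 832 CPM in high Fb wells.

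**Figure D5:**
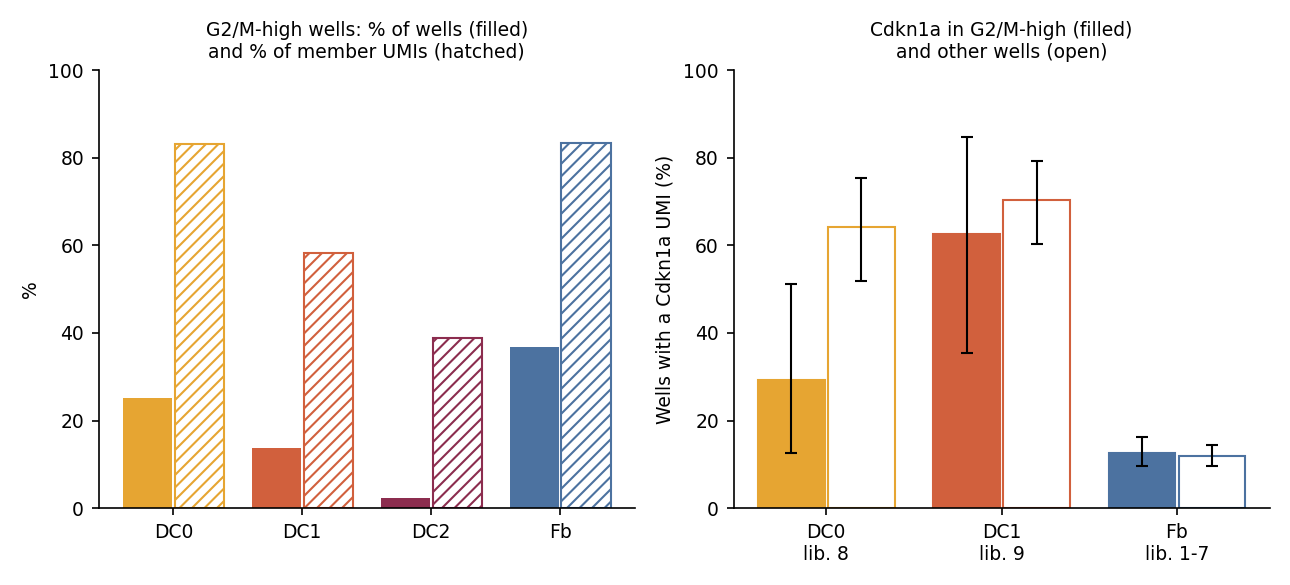
Left, the percentage of wells that were G2/M-high (filled) and the percentage of member UMIs those wells held (hatched) in DC0, DC1, DC2 and Fb. Right, the percentage of G2/M-high (filled) and other (open) wells with at least 1 Cdkn1a UMI of 3000, with exact 95% binomial intervals, which are 29.2% and 64.3% in DC0 of library 8.

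Genes that were no members were read in the same wells. Cdkn1a (p21), which was 3.68 higher in condensate sums on the log2 scale, had a UMI in 7 of 24 G2/M-high DC0 wells of library 8 (29.2%, exact interval 12.6 to 51.1%) and in 45 of the 70 other DC0 wells (64.3%, 51.9 to 75.4%). In DC1 wells of library 9 the numbers were 10 of 16 (62.5%, 35.4 to 84.8%) in G2/M-high wells and 69 of 98 (70.4%, 60.3 to 79.2%) in the others. In Fb wells they were 54 of 426 (12.7%) and 87 of 729 (11.9%). The intervals of the classes did not overlap in DC0 of library 8 and overlapped in DC1 of library 9 and in Fb. In libraries 1 to 7 Cdkn1a had a UMI in 6 of 9 high condensate wells (66.7%) and 37 of 59 others (62.7%). By stage the numbers there were 3 of 5 against 13 of 16 in DC0, 3 of 3 against 12 of 22 in DC1 and 0 of 1 against 12 of 21 in DC2. The direction thus differed between stages and plates, on few high wells. The wells of library 8 share a plate, so no test over samples was possible. The S phase list, a set of replication genes, had a median of 15 UMIs in high condensate wells against 4 in the others, and 11 in high Fb wells against 7 in the others.

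Condensate markers had a median of 5 UMIs of 3000 in G2/M-high condensate wells, 9 in the other condensate wells and 0 in both classes of Fb wells. Sox18, a condensate transcription factor, had a UMI in 15 of 50 high condensate wells (30%, 17.9 to 44.6%) and in 188 of 291 others (64.6%, 58.8 to 70.1%). It had one in 8 of 426 high Fb wells and 7 of 729 other Fb wells. The stages mix in these sums. Within DC0 of library 8 the Sox18 share was 25% in high wells and 40% in others, with overlapping intervals, and within DC1 of library 9 it was 37.5% in high wells and 70.4% in others, again with overlapping intervals. Fibroblast markers had a median of 30.5 UMIs in high condensate wells and 34 in the other condensate wells, against 109 in high Fb wells and 134 in other Fb wells. The median well held 16527 UMIs before thinning in high condensate wells and 12773 in the others, against 25691.5 and 20941 in Fb; the part of depth or of wells with several cells in the split was not tested.

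Lists of other genes of the cycle moved the same way in sums. Of 63 other G2 and mitosis genes 23 were lower in condensate cells, where 13.2% of all genes were, and none was higher. Their median was -0.76. Ncapg2 of condensin II (-1.56), Depdc1a (-1.53), the spindle regulator Psrc1 (-1.52) and Oip5 of the Cenpa loading complex (-1.33) had the largest falls. Of 42 tested S phase genes 18 were lower and none higher (median -0.61), led by the helicase subunit Gins2 (-1.64), the repressor E2f8 (-1.51), the repair enzyme Ung (-1.44) and Cdca7 (-1.29). In DC2 against Fb, 28 of 35 other G2 and mitosis genes and 28 of 31 S phase genes were lower, where 17.9% of all genes were. The earlier stages showed little of this. In DC0 1 of 35 and 1 of 31 were lower (8.78% of all genes), and in DC1 1 of 35 and 6 of 31 (9.88%).

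Of 10 tested brakes of the cycle 6 were higher and 2 lower in condensate cells, where 10.4% of all genes were higher. Plk2, a kinase induced by p53 (3.84, SE 0.241), Cdkn1a (3.68, SE 0.184) and Rb1, the retinoblastoma protein (2.77, SE 0.336), rose. Cdkn2c, the inhibitor p18 of cyclin D kinases, fell (-1.43, SE 0.380, adjusted p = 0.00417).

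Wells named for spike-in RNA give the level without a named cell. They held a median of 431 UMIs, and their member UMIs were 462 of 72455, or 0.638%, close to the share in Fb sums and above the 0.0762 to 0.160% of the wells that were not G2/M-high. Per well that was 0.688 member UMIs in library 8 and 5.31 in library 9. The other wells, before thinning, held a mean of 13.8 member UMIs in DC0 and 14.8 in DC2 of library 8, and 17.2 in DC1 of library 9. In libraries 1 to 7 the means were 21.3 in other condensate wells and 38.7 in other Fb wells, against 3.27 in spike-in wells. The low wells thus held more member UMIs than a spike-in well of the same libraries, in every one of these sets; the part of free RNA in them was not tested. Wells in which markers of a single other cell type made up 0.2% or more of the UMIs were 8 in DC0, 6 in DC1, 10 in DC2 and 53 in Fb, and the count of members lower in condensate cells was 31 without them as well.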

How the data were processed

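RNA of single wells was counted by SORT-seq in 9 libraries from mouse back skin at embryonic day 15; 12 bulk samples were not analysed here. The submitters' processing notes name BWA 0.6.2-r126, Cufflinks 2.1.1, Bowtie2 and TopHat2 2.0.3 without saying what each did, and the mm10 build. The authors deposited expected counts: UMIs per gene and well, corrected for collisions in a space of 4096 tags, as read from the values (0 of 7480233 values above 0 were off that formula by more than 0.005). They were rounded to whole UMIs, which changed 13.5% of values above 0. The design had assumed whole counts. CPM are UMIs scaled by the total of a sum.

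UMIs were summed by population and library (libraries 1 to 6 with at least 10 wells of each kind; for stages, 30 sums of at least 2 wells) and tested with edgeR 4.0.16 (TMM, glmQLFTest, Benjamini-Hochberg at 0.05 over all genes tested, library as a block since wells of both kinds share a plate per the labels), in R 4.3.3 with limma 3.58.1 and DESeq2 1.42.0. The fits were tested on simulated data. Wells were thinned to 3000 UMIs with Python 3.11.15, numpy 2.4.6, pandas 2.3.3 and scipy 1.17.1, and figures drawn with matplotlib 3.10.9. Doublets were not called, since each well received a sorted cell; 0 pairs of wells held identical values, and 367 of 368 well positions occur in more than 1 library, which is a plate layout. Alternatives were another scaling, DESeq2, other filters, no block, other well minimums, thinning, sequencing runs apart and each library left out.

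Values of every library are given for the 10 members with the most UMIs and for the members with the lowest and highest fold change, and up to 4 genes of each other list by size of change. Members, lists, roles and tests were chosen with earlier results of these data known.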

Additional observations from a re-analysis of the deposited data

Results flagged for a closer look

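Hmgb2 in condensate sums of library 1 stood apart, at 531.9 CPM against 275.8 CPM in the next library, a gap of 0.631 of the range over 6 libraries. Of 30 sets of library values looked at this was the only one past the critical value of Dixon's test, which chance passes in about 1 of 20 sets.

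Hmgb2 also differed between DC2 and DC1, by -1.75 on the log2 scale; against Fb it was at -2.22 in DC2 and at -0.47 in DC1.

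Member UMIs made up 0.638% of the UMIs of wells named for spike-in RNA, which no comparison uses. They were 462 UMIs in 114 such wells, with at most 20 in a well, and the sole spike-in well deep enough to thin held 15 member UMIs of 3000.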

How the results depend on the processing

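In every alternative run no member was called higher in any comparison with Fb or between stages. The number of members lower in condensate cells (31 of 48) was 11 with no replicate block, 6 in the shared run alone and 10 (of 32 tested) with thinned wells, and 18 to 45 with a library left out. All genes called lower numbered 1269, against 662 in the other libraries alone, 327 with thinned wells and 261 without wells that held 5 or more UMIs of other cell types; all genes higher numbered 1007, against 373, 253 and 210 in the same order. That limit on other cell types left a single library for the difference in G2/M-high wells, which was then -42.1 points against -24.7; the limit of 0.2% was added after seeing the data. Hjurp turned above 0 without the block (0.0037), in the shared run (0.044) and without library 2 (0.014), its range with a library left out being -0.25 to 0.014.

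For DC0 against Fb (10 lower) the counts were 0 with at least 5 wells per sum, 5 of 20 tested with filterByExpr, 22 with no filter, 2 with no replicate block, 18 in the other libraries, 1 in the shared run, 18 with thinned wells, and 4 to 25 with a library left out. For DC1 against Fb (7 lower) they were 13 with at least 5 wells, 3 with DESeq2, 1 of 20 tested with filterByExpr, 25 with no filter, 3 with no replicate block, 4 with RLE factors, 0 in the shared run, 22 with thinned wells, 30 without wells of other cell types, and 3 to 21 with a library left out. For DC2 against Fb (42 lower) they were 17 of 45 tested with at least 5 wells, 20 of 20 tested with filterByExpr and 11 of 45 tested in the shared run. For DC2 against DC1 (1 lower) they were 0 with at least 5 wells, with no replicate block, in either set of runs and without wells of other cell types, 7 with no filter, and 0 to 11 with a library left out. Thinning moved the median of all genes against Fb by -0.71 in DC0, -0.69 in DC1 and -0.64 in DC2, so its counts there are relative to that shift. The cause of these moves was not tested; fewer genes enter with stricter filters. Few wells and shallow DC2 wells limit the condensate sums.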
